A study of Homo sapiens with 6 samples.

Results

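The genes described here encode the enzymes that crosslink the extracellular matrix: the 5 lysyl oxidases LOX, LOXL1, LOXL2, LOXL3 and LOXL4, and the transglutaminase TGM2. They were chosen by gene symbol, as enzymes that join collagen, elastin or fibronectin chains, and all 6 were found once each among the 58735 genes of the deposited table. A filter on low counts left 5 of the 6 for testing, and LOXL4 was too low to test.

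Lysyl oxidases are copper-dependent amine oxidases that are secreted and turn lysine side chains of collagen and elastin into reactive aldehydes, which then condense into covalent bonds between chains. LOX and LOXL1 are made with a propeptide that is cut off outside the cell by BMP1-type proteases, whereas LOXL2, LOXL3 and LOXL4 carry scavenger receptor domains instead. Transglutaminase 2 is a calcium-dependent enzyme that bonds a glutamine of 1 protein to a lysine of another, and outside the cell it also binds fibronectin and integrins. The retinal pigment epithelium (RPE) lies on Bruch's membrane, a layered sheet of collagen and elastin on which such crosslinks form.

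The transcripts were counted by RNA sequencing of ARPE-19, an established human RPE cell line. Of the 6 libraries, 3 came from cells whose genotype is given as overexpression of CD51_ICD (OE_CD51_ICD) and 3 from cells labelled wild type (NC). CD51 is integrin alpha V, the product of ITGAV. The labels do not spell out ICD and give neither the vector nor what the NC cells received, and whether the 3 libraries of each group are separate cultures is not stated. The p-values therefore reflect library-to-library spread, which may be technical. The comparison asks which crosslinking enzymes differ in transcript level when the CD51-derived product is overexpressed.

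Total counts were 14577912 to 15640428 in OE_CD51_ICD libraries and 13616694 to 16934668 in NC libraries. ITGAV, the targeted gene, averaged 448 ± 83.5 CPM in OE_CD51_ICD and 98.4 ± 12.9 CPM in NC (SD, n = 3 each). Construct and endogenous transcript may be mixed in these counts, which was not tested. Of 6 epithelial markers, KRT8 and KRT18 did not pass (log2 -0.10 and -0.091), CLDN4 and TJP1 rose (log2 1.73 and 0.39), and CDH1 and EPCAM were near 0, with 13 and 1 counts over OE_CD51_ICD and 5 and 3 over NC. RPE65, TTR and CRX, markers of mature RPE, had no count in any library. The 10 RPE markers summed to 59.4 to 77.6 CPM per OE_CD51_ICD library and 63.3 to 72.2 CPM per NC library, with PMEL and RLBP1 higher (log2 0.80 and 0.81), MITF lower (log2 -0.56) and OTX2 and LRAT not passed. The RLBP1 call was lost without NC replicate 1 or OE_CD51_ICD replicate 1 (adjusted p = 0.00424 to 0.0783 over its alternatives). The 7 fibroblast markers summed to 1.0 to 1.78 CPM per OE_CD51_ICD library and 0.212 to 0.521 CPM per NC library, and DCN had no count. The microglia and macrophage list was low apart from CSF1R (32.9 CPM in OE_CD51_ICD and 3.6 CPM in NC), with P2RY12 at 0. The part of such cells in the results was not tested. In whole-culture RNA, a changed number of expressing cells and a changed amount of RNA per cell cannot be told apart.

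Of the 5 crosslinking enzyme genes tested, TGM2, LOX and LOXL1 rose in OE_CD51_ICD cells, none fell, and LOXL2 and LOXL3 did not pass. The change was broad: 25.2% of all 13787 genes tested were called higher, 25.8% were called lower and 51.0% were called in either direction, at a Benjamini-Hochberg adjusted p under 0.05 by edgeR's quasi-likelihood test. Against that background a call by itself says little about these enzymes. LOX and TGM2 rose at least 2-fold, as 6.89% of tested genes did, and none of the 5 fell as far, where 5.83% of tested genes did. The sizes differed between members: 0.667% of tested genes had a larger log2 fold change than TGM2, 1.58% a larger one than LOX and 11.1% a larger one than LOXL1. Levels below are CPM, counts scaled to library size with TMM factors, when libraries are compared, and the deposited FPKM, counts per kilobase of gene length, when genes are compared.

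**Figure D1:**
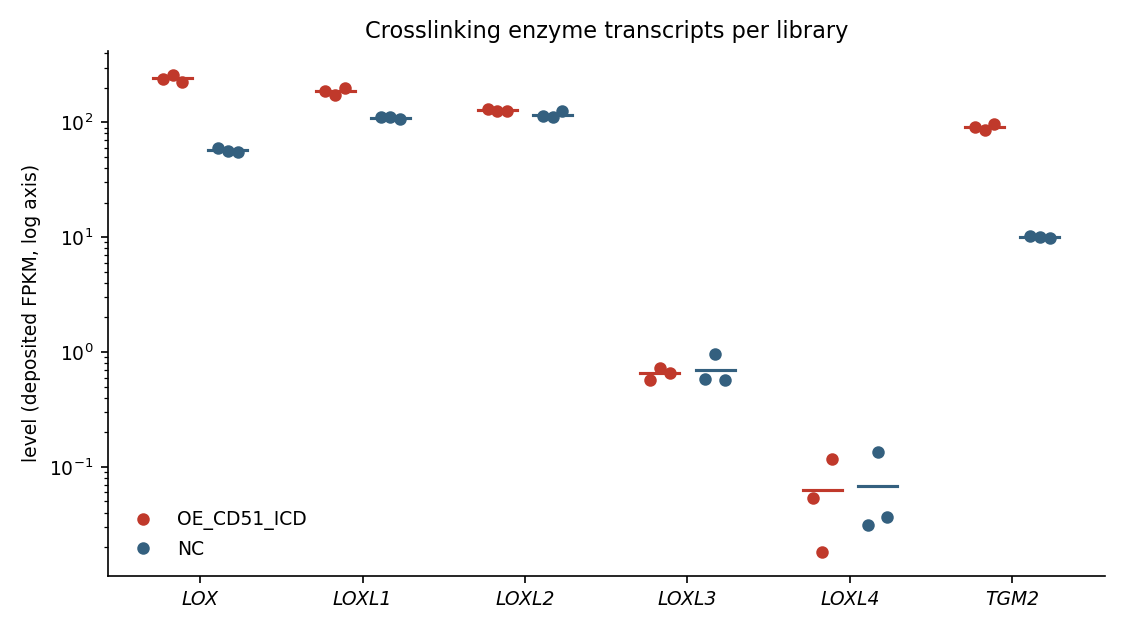
Deposited FPKM of each crosslinking enzyme gene in each library, on a log axis, with OE_CD51_ICD libraries left of NC libraries, 3 points per group and a line at the group mean. TGM2 and LOX are clearly separated and LOXL1 less so. LOXL2 lies at 124.8 to 130.2 FPKM in OE_CD51_ICD against 111.3 to 125.4 FPKM in NC, so its groups overlap. LOXL3 and LOXL4 lie below 1 FPKM, also with overlapping groups.

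LOX encodes the founding enzyme of the family (ENSG00000113083, GRCh38 chromosome 5, 122063195 to 122078360, minus strand, 7 exons in its longest coding transcript). It stood at 1346, 1484 and 1240 CPM in OE_CD51_ICD replicates 1, 2 and 3, against 338, 314 and 305 CPM in NC replicates 1, 2 and 3. The lowest OE_CD51_ICD library was thus well above the highest NC library. Groups that did not overlap in CPM were found for 57.5% of all genes tested. The rise was 4.25-fold (log2 2.09 ± 0.08 SE, 95% interval 1.92 to 2.26, edgeR adjusted p = 1.17e-18). OE_CD51_ICD replicate 2 was the highest and replicate 3 the lowest for LOX, a spread of 9.0% of the mean (SD) where counting error alone gives 0.710%. SRFBP1, on the opposite strand, shares 2.49% of the LOX exon bases, and it had 25 to 42 counts per OE_CD51_ICD library and 29 to 69 per NC library, far below the counts of LOX.

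LOX is a known target of hypoxia-inducible factor, and its promoter is shown because LOX had the largest change among the lysyl oxidases, beside the promoter of LOXL4, the member near 0. RefSeq promoters of 4 members were at hand (LOX, LOXL1, LOXL3 and LOXL4, build GRCh38.p14), and the 250 bases before an annotated start were searched on both strands for 7 motifs: the TATA box TATAAA, the GC box GGGCGG, the hypoxia response element core ACGTG, the AP-1 site TGANTCA, the Snail E-box CAGGTG, the TEAD site GGAATG and the SMAD palindrome GTCTAGAC. Capitals mark every match, the genes lie on the minus strand, and the sequences read 5′ to 3′ toward the start. The windows are chr5:122078260-122078509 for LOX and chr10:98268195-98268444 for LOXL4, of which the last 101 and 56 bases lie within the gene as GENCODE 29 annotates it.
LOX: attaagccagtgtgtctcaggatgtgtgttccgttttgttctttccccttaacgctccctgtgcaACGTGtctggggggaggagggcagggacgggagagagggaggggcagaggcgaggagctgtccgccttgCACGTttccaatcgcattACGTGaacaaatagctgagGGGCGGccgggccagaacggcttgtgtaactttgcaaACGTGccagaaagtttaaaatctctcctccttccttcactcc
LOXL4: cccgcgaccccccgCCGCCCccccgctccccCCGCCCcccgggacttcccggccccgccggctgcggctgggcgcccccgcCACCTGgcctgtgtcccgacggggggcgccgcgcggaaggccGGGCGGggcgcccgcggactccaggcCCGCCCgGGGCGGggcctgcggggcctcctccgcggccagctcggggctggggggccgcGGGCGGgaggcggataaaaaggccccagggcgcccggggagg

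The LOX window held the hypoxia response element core ACGTG 4 times, starting 185, 116, 98 and 42 bases before the start, and a GC box (GGGCGG) once. The core is found at least once in 18.5% and at least 4 times in 0.669% of the 35116 promoter windows in the table. The cut of 4 was taken from the LOX window itself, and no such share was computed for the other motifs. At least 1 match is found in 42.6% of windows for the GC box, 17.5% for CAGGTG and 11.9% for GGAATG. At the other LOX starts in the table, which lie further downstream in windows that overlap each other, the core occurred at 1 shared position and CAGGTG, in reverse, at another. The LOXL4 window, with 86.4% G and C against a median of 58.0% over all windows, held 6 GC boxes and a match to CAGGTG in reverse, and no ACGTG. All 250 bases of the LOXL1 and LOXL3 windows lie inside the annotated genes. None of the 7 motifs was found in the LOXL1 window, and of the LOXL3 windows 1 held GGAATG 2 times and the other held GGGCGG 2 times and CAGGTG 1 time. A match describes these letters only, and binding was not measured.

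LOXL1 encodes the lysyl oxidase best known for elastic fibres and, in the eye, for its association with exfoliation syndrome (ENSG00000129038, chromosome 15, 73925989 to 73952137, plus strand). Its level was 683, 647 and 730 CPM in OE_CD51_ICD replicates 1, 2 and 3, against 407, 406 and 390 CPM in NC replicates 1, 2 and 3. All OE_CD51_ICD libraries were above all NC libraries, and 57.5% of all genes tested likewise had groups that did not overlap. The SD among the NC libraries was 2.31% of their mean. The rise was 1.71-fold (log2 0.78 ± 0.08 SE, 95% interval 0.62 to 0.93, edgeR adjusted p = 1.08e-09). Removing each library's trend with GC content raised the log2 value to 1.11, and the longest LOXL1 transcript has 67.6% G and C where the median gene of the table has 46.9%. The antisense transcript LOXL1-AS1 shares 9.21% of the LOXL1 exon bases. It averaged 60.8 ± 2.06 CPM in OE_CD51_ICD and 49.3 ± 0.875 CPM in NC (SD, n = 3 each; log2 0.30, adjusted p = 0.00645), and without knowledge of strand use reads over the shared bases cannot be told apart.

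LOXL2 encodes an enzyme that crosslinks collagen IV and is also reported to act on the EMT factor SNAI1 (ENSG00000134013, chromosome 8, 23297189 to 23425328, minus strand). It read 750, 731 and 724 CPM in OE_CD51_ICD replicates 1, 2 and 3, against 655, 641 and 718 CPM in NC replicates 1, 2 and 3. The groups did not overlap in CPM, as for 57.5% of all genes tested. The gap between NC replicate 3 and OE_CD51_ICD replicate 3 was narrower than the spread among NC libraries. In deposited FPKM the groups overlapped, with OE_CD51_ICD replicate 2 at 124.8 and NC replicate 3 at 125.4. The log2 fold change was 0.13 ± 0.08 SE and did not pass (edgeR adjusted p = 0.160), with a 95% interval of -0.03 to 0.29. In this fit a change of more than 1.22-fold lies outside the interval, but the estimate with the GC trend removed lay above it. LOXL2 passed with upper-quartile scaling (log2 0.18, adjusted p = 0.0496) and with the GC trend removed (log2 0.35, adjusted p = 1.36e-04), and the adjusted p ran from 1.36e-04 to 0.442 over 18 alternatives. ENTPD4, on the same strand, shares 2.10% of LOXL2 exon bases and averaged 76.3 ± 8.45 CPM in OE_CD51_ICD and 52.8 ± 1.30 CPM in NC (SD, n = 3 each).

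LOXL3, a lysyl oxidase with a role in cartilage and palate development in mice (ENSG00000115318, chromosome 2), was low. It had 38, 48 and 40 counts in OE_CD51_ICD replicates 1, 2 and 3, against 44, 60 and 37 counts in NC replicates 1, 2 and 3, and the groups overlapped. The mean was 2.88 ± 0.390 CPM in OE_CD51_ICD and 3.10 ± 0.996 CPM in NC (SD, n = 3 each). Its log2 fold change of -0.10 ± 0.27 SE did not pass (edgeR adjusted p = 0.786), and the 95% interval, -0.64 to 0.45, is wide. HTRA2 and DOK1, on the opposite strand, share 14.3% and 4.95% of LOXL3 exon bases. HTRA2 had 483 to 565 counts per OE_CD51_ICD library and 583 to 723 per NC library, so part of the LOXL3 counts may belong to it; that part was not tested.

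LOXL4 (ENSG00000138131, chromosome 10) had 3, 1 and 6 counts in OE_CD51_ICD replicates 1, 2 and 3, against 2, 7 and 2 counts in NC replicates 1, 2 and 3. That is 10 counts in all over OE_CD51_ICD and 11 over NC, and a difference was not detectable at this depth.

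TGM2, which encodes transglutaminase 2 (ENSG00000198959, chromosome 20, 38127387 to 38166578, minus strand, 13 exons in its longest coding transcript), had the largest change of the 6. It reached 733, 709 and 774 CPM in OE_CD51_ICD replicates 1, 2 and 3, against 83.4, 81.5 and 80.1 CPM in NC replicates 1, 2 and 3. Within each group the libraries lay close together, with SDs of 4.45% of the mean in OE_CD51_ICD and 2.05% in NC, where counting error gives 0.963% in OE_CD51_ICD and 2.82% in NC. The rise was 9.04-fold (log2 3.18 ± 0.08 SE, 95% interval 3.01 to 3.35, edgeR adjusted p = 3.86e-23). RPRD1B, on the opposite strand, shares 4.90% of TGM2 exon bases and averaged 23.1 ± 2.61 CPM in OE_CD51_ICD and 19.3 ± 2.30 CPM in NC (SD, n = 3 each), which is small beside either TGM2 level.

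Of 9 other genes listed with the transglutaminases, only TGM1, the enzyme of the epidermal cornified envelope, was abundant enough to test. It averaged 146 ± 3.6 CPM in OE_CD51_ICD and 79.3 ± 5.61 CPM in NC (SD, n = 3 each; log2 0.89, edgeR adjusted p = 3.69e-10). TGM3, TGM5, TGM7, F13A1, F13B and EPB42 had no count in any library, while TGM4 had 12 counts over OE_CD51_ICD and 1 over NC, and TGM6 had 2 over each group. Little sequence is shared inside the family set: of the 31-base words in the annotated transcripts, none of LOX, LOXL1, LOXL3 or LOXL4 and 5 each of LOXL2 and TGM2 occurred in another of the 6 genes, and reads of that length could be shared among the 6 at those words alone.

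**Figure D2:**
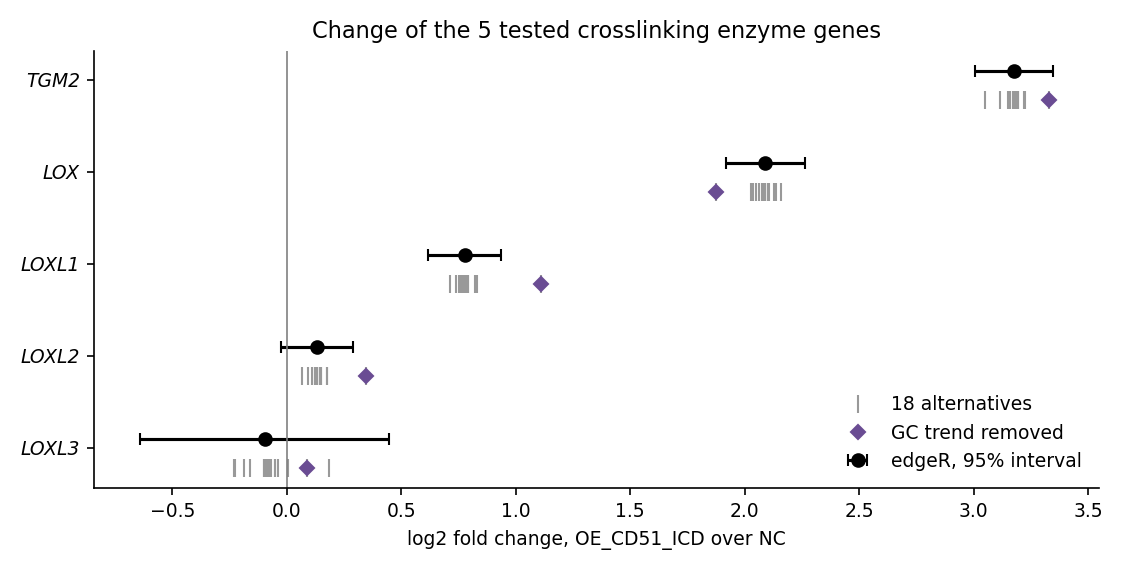
Log2 fold change of OE_CD51_ICD over NC for the 5 tested genes, with edgeR's estimate and 95% interval as black points and bars, each of 18 alternatives as a grey tick and the fit with the GC trend removed as a diamond. The estimates for TGM2, LOX, LOXL1 and LOXL2 lie above 0 in every fit shown, and those for LOXL3 span it. The LOXL2 alternatives run from 0.07 to 0.35, and its 95% interval includes 0.

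Per kilobase of gene, the order of levels differed between the groups. In OE_CD51_ICD cells LOX led with 241 ± 18.7 FPKM, followed by LOXL1 with 187 ± 13.5, LOXL2 with 127 ± 2.78 and TGM2 with 90.8 ± 5.12 FPKM (SD, n = 3). In NC cells LOXL2 and LOXL1 led with 116.8 ± 7.57 and 109.5 ± 2.15 FPKM, a gap smaller than the spread of LOXL2. LOX followed with 57.1 ± 2.90 and TGM2 with 10.1 ± 0.173 FPKM (SD, n = 3). LOXL3 stood at 0.652 ± 0.0820 FPKM in OE_CD51_ICD and 0.705 ± 0.226 FPKM in NC, and LOXL4 at 0.0630 ± 0.0502 FPKM in OE_CD51_ICD and 0.0676 ± 0.0580 FPKM in NC (SD, n = 3 each). Among all 58735 genes, TGM2 ranked 411 by mean FPKM in OE_CD51_ICD and 3625 in NC, and LOX 137 in OE_CD51_ICD and 732 in NC. FPKM depends on the gene length used. With the length of the longest coding transcript in its place, chosen after seeing the data, mean LOXL1 was above mean LOX in both groups, at 289 ± 20.9 against 262 ± 20.3 in OE_CD51_ICD and 169 ± 3.33 against 62.0 ± 3.15 in NC (SD, n = 3 each). In OE_CD51_ICD the ranges overlapped, and in replicate 2 LOX (283) stayed above LOXL1 (268).

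The make-up of the lysyl oxidase pool changed with the group. LOX made up 43.1%, 46.6% and 40.5% of the summed lysyl oxidase FPKM in OE_CD51_ICD replicates 1, 2 and 3, against 21.1%, 20.1% and 19.0% in NC replicates 1, 2 and 3. The LOXL2 share was 22.9% ± 0.532 in OE_CD51_ICD and 41.1% ± 2.16 in NC, and the LOXL1 share 33.6% ± 2.70 in OE_CD51_ICD and 38.5% ± 1.26 in NC (SD, n = 3 each), with groups that did not overlap for either. With transcript lengths the LOXL1 shares overlapped, at 35.6% to 40.9% in OE_CD51_ICD and 38.7% to 41.5% in NC. LOXL3 and LOXL4 together never reached 1% of the pool. The sum over the 5 lysyl oxidases was 556 ± 4.51 FPKM in OE_CD51_ICD and 284 ± 4.34 FPKM in NC, a ratio of 1.96, and TGM2 made up 14% ± 0.776 of the FPKM of all 6 enzymes in OE_CD51_ICD and 3.43% ± 0.0804 in NC (SD, n = 3 each). Shares add to a fixed total, so the smaller LOXL2 share goes with a LOXL2 level that did not pass the test. These sums and shares are descriptions and were not tested. The FPKM carry no correction for GC content. With the GC trend removed, the log2 fold change was 1.87 for LOX, 1.11 for LOXL1 and 0.35 for LOXL2. In the main fit these were 2.09, 0.78 and 0.13. The shares were not recomputed that way, and whether LOX would still lead or the LOXL1 share still fall was not tested.

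**Figure D3:**
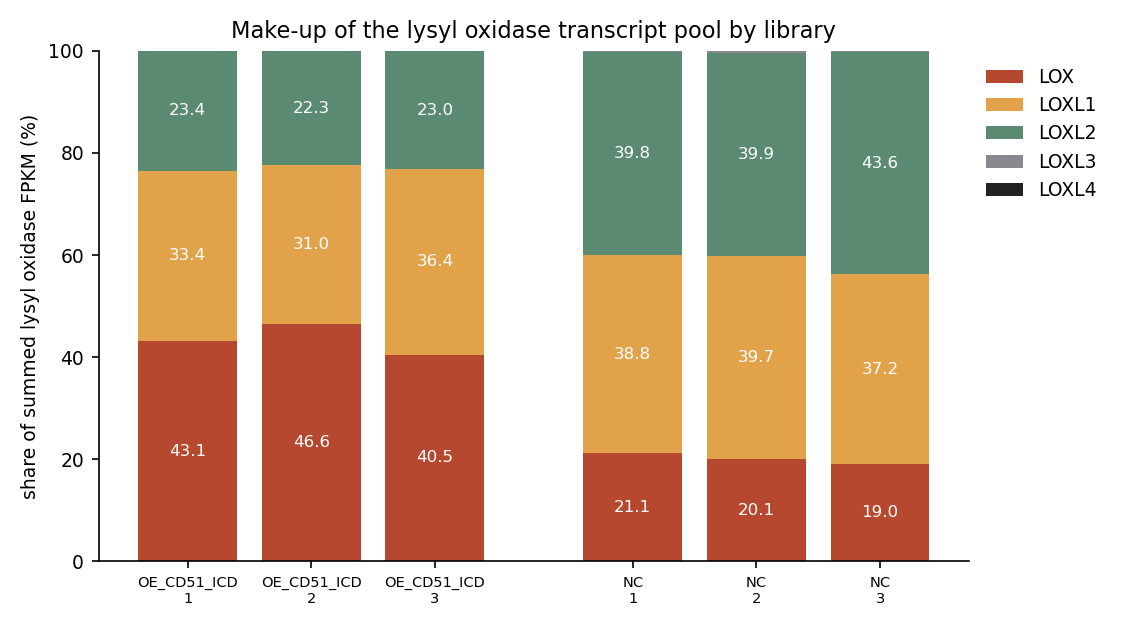
Share of each lysyl oxidase in the summed lysyl oxidase FPKM of each library, in percent, with OE_CD51_ICD libraries left of NC libraries. LOX is the largest part in each OE_CD51_ICD library, at 40.5% to 46.6%, and the smallest of the 3 visible parts in each NC library, at 19.0% to 21.1%; LOXL3 and LOXL4 are too small to see.

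The substrates of these enzymes were measured in the same libraries. Of 14 collagen and elastin genes listed as lysyl oxidase substrates, 6 were tested, of which 5 reached the low-count filter in every library of both groups. All 5 rose, where 25.2% of all genes tested did. COL1A1, which encodes a chain of type I collagen, had the largest log2 fold change of them at 5.47, COL4A1, of basement membranes, was at 2.28, and COL4A2, COL5A2 and COL11A1 were the others. Their median log2 fold change was 1.43, where that of all genes tested was 0.01. COL27A1 passed the filter only through the OE_CD51_ICD libraries, with 349 counts over OE_CD51_ICD and 20 over NC, and is left out of these values. The partner chain of COL1A1, COL1A2, had 12 counts over OE_CD51_ICD and 0 over NC. COL5A1, a partner chain of COL5A2, had 31 over OE_CD51_ICD and 0 over NC. COL3A1 had 13 over OE_CD51_ICD and 9 over NC. ELN, which encodes elastin, had 5 over OE_CD51_ICD and 18 over NC, so the main elastin substrate was near 0 in both groups. None of these genes with few counts was tested.

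Of 8 proteins listed as transglutaminase 2 substrates, 5 genes were tested, of which 4 rose and 1 fell, with a median log2 fold change of 1.48, against 25.2% higher and 25.8% lower among all genes tested. FN1, fibronectin, averaged 7043 ± 769 CPM in OE_CD51_ICD and 992 ± 40.8 CPM in NC (SD, n = 3 each; log2 2.83, edgeR adjusted p = 2.62e-21). LTBP1, which tethers latent TGF-beta to the matrix, and FBN1, fibrillin 1, had log2 fold changes of 2.0 and 1.48, and NID1 was the other higher gene, whereas VTN, vitronectin, fell by 1.45 on the log2 scale. SPP1, osteopontin, a transglutaminase substrate and the ligand named in the title of the series, had 3 counts over OE_CD51_ICD and 6 over NC. Among 7 cell surface partners of transglutaminase 2, 6 rose, led by ITGB3, ITGB1 and the adhesion receptor gene ADGRG1 (log2 1.88, 1.52 and 1.47), and SDC4, a heparan sulfate proteoglycan, fell by 0.57. The median of that list was 1.18, and of all genes tested 25.2% were called higher and 25.8% lower. In limma on log2(FPKM + 1), LTBP1 was at 1.24 and ITGB3 at 1.25.

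Genes for proteins that process or anchor lysyl oxidases and for enzymes that modify lysines were called in both directions. Of 13 processing and scaffold genes, 10 were tested, 6 rose, 1 fell and 3 did not pass, with a median log2 fold change of 0.57. That is 7 of 10 called, where 51.0% of all genes tested were. BMP1, whose product cuts the LOX propeptide, averaged 387 ± 18.7 CPM in OE_CD51_ICD and 210 ± 1.13 CPM in NC (SD, n = 3 each; log2 0.88, edgeR adjusted p = 6.57e-11), and its relative TLL1 had a log2 fold change of 1.19. The scaffold genes FN1, THBS1 and FBLN5 rose by 2.83, 2.77 and 2.54 on the log2 scale (FBLN5 by 0.98 in limma on log2(FPKM + 1)), EFEMP2, fibulin-4, rose by 0.26, and ADAMTS2, a procollagen protease, fell by 1.0. Of 6 lysyl hydroxylation genes, PLOD2, the lysyl hydroxylase that acts on collagen telopeptides, and PLOD1 rose (log2 1.39 and 0.40), COLGALT1, which adds galactose to hydroxylysine, fell by 0.60, and 3 did not pass; the median was 0.08 and the called share, 3 of 6, is close to the 51.0% of all genes tested. With the GC trend removed, PLOD3 and FKBP10 passed too, so that 4 rose.

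Copper supply genes showed small changes. Of 9 listed, 8 were tested, of which 3 rose, 1 fell and 4 did not pass, and the median log2 fold change was -0.03. The called share, 4 of 8, is close to the 51.0% of all genes tested. The copper importer gene SLC31A1 averaged 45.7 ± 1.65 CPM in OE_CD51_ICD and 34.1 ± 3.49 CPM in NC (SD, n = 3 each; log2 0.42, edgeR adjusted p = 0.00106). ATP7A, which pumps copper into the secretory pathway where lysyl oxidases receive it, was at 5.64 ± 0.446 CPM in OE_CD51_ICD and 3.49 ± 1.19 CPM in NC (SD, n = 3 each; log2 0.68, edgeR adjusted p = 0.0155). The ATP7A call was lost without NC replicate 2, with the GC trend removed and in limma on log2(FPKM + 0.1), with an adjusted p of 0.00861 to 0.139 over its alternatives. CCS, a chaperone of superoxide dismutase, rose by 0.29, a call lost without NC replicate 2, NC replicate 3 or OE_CD51_ICD replicate 3 and with library size as the only scaling (adjusted p = 2.83e-05 to 0.102). COX17, which carries copper to mitochondria, fell by 0.59, a call lost without OE_CD51_ICD replicate 2 (adjusted p = 0.00124 to 0.0643). SCO1, a mitochondrial copper chaperone gene that did not pass (log2 -0.25), was called lower with library size as the only scaling, with the GC trend removed and without OE_CD51_ICD replicate 3 (adjusted p = 0.00419 to 0.326).

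Outside both families, PXDN, peroxidasin, which forms the sulfilimine crosslinks of collagen IV, averaged 1152 ± 83.5 CPM in OE_CD51_ICD and 600 ± 23.2 CPM in NC (SD, n = 3 each; log2 0.94, edgeR adjusted p = 2.90e-11). The other tested gene of that list of 5, the amine oxidase gene AOC2, had 37 counts over OE_CD51_ICD and 16 over NC. It passed the filter only through the OE_CD51_ICD libraries, so no call is read from it.

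**Figure D4:**
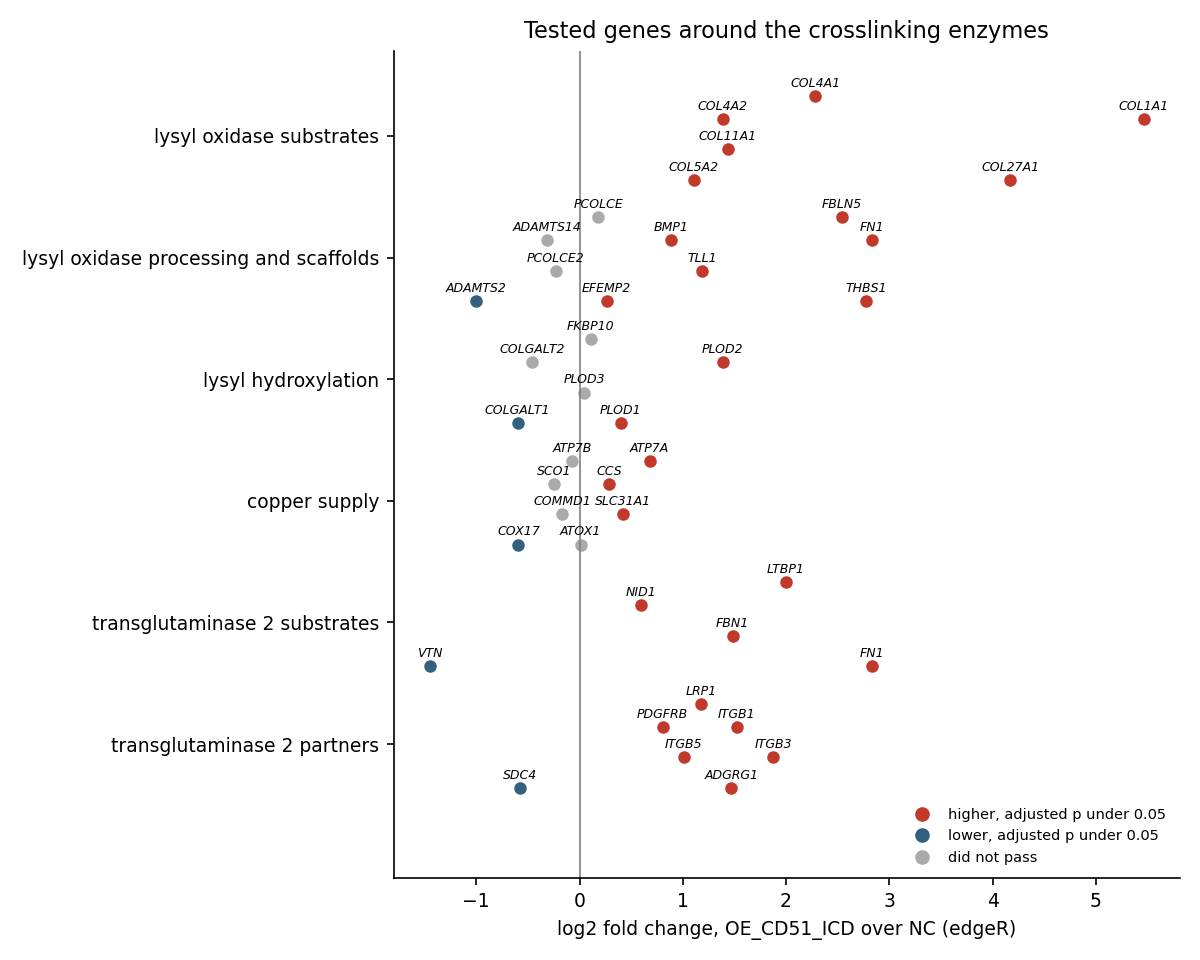
Log2 fold change of OE_CD51_ICD over NC (edgeR) for each tested gene of 6 lists around the crosslinking enzymes, with colour giving the call; vertical position inside a list only separates the labels. The lysyl oxidase substrate genes lie to the right of 0, up to COL1A1 at 5.47, with COL27A1 shown although it passed the filter only through the OE_CD51_ICD libraries, whereas copper supply genes lie between -0.59 and 0.68.

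Genes with the most similar profile were sought among 9570 other protein-coding genes that averaged 5 CPM or more, by the root mean square difference of log2(CPM + 0.1), centred per gene, over the 6 libraries. Those nearest to TGM2 were ADAM19, JUNB and P4HA3 (differences of 0.07, 0.10 and 0.11 on the log2 scale), which encode a membrane protease, an AP-1 subunit and a collagen prolyl hydroxylase subunit. Those nearest to LOX were CHST11, a chondroitin sulfotransferase gene, COL4A4 and LTBP1 (0.07, 0.10 and 0.10). For LOXL1 they were SLC39A7, GADD45B and MXRA8 (0.03, 0.03 and 0.04), for LOXL2 ACIN1, OS9 and GSPT1 (0.02 each) and for LOXL3 QRSL1, POLB and HAUS2 (0.08, 0.11 and 0.12). With 3 libraries per group this likeness rests mostly on the size of the group difference.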

How the data were processed

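Gene expression was measured by RNA sequencing in 3 OE_CD51_ICD and 3 NC libraries of ARPE-19 cells, grouped by sample title. The authors deposited whole-number gene counts and FPKM values, with Ensembl IDs, symbols, coordinates and gene lengths per the file headers. The build is hg38, per the submitters' processing notes, and all 58735 IDs and coordinates matched GENCODE 29. For aligner, counting program and strand use: not given in the sources used here. The deposited FPKM are the counts scaled by gene length and a library-wide factor close to the total (0.961 to 1.05 of it).

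The test on the counts was edgeR 4.0.16 under R 4.3.3 (filterByExpr, TMM, glmQLFit and glmQLFTest, two-sided), with p-values adjusted over 13787 genes. Standard errors and intervals were derived from the F statistic. Intervals and counting errors cover these libraries only, and PCR copies were not marked. The fit was tested on simulated data. Alternatives used DESeq2 1.42.0, limma 3.58.1, other scalings and filters, removal of GC trends, a replicate block and each library left out. Replicate pairs differed by more than sampling noise (chi-square of 4.12 to 13.0 per gene), so no pair was taken as 1 library deposited again. Python 3.11.15 and matplotlib 3.10.9 made tables and plots.

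The genes, the lists around them and the tests were chosen with earlier results of these data known. Named genes were the 6 enzymes, from each list up to 3 called genes per direction with the largest change, and the 3 genes with the most similar profile to each tested enzyme; other list genes were named after their values were seen.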

Additional observations from a re-analysis of the deposited data

How the results depend on the processing

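The LOX, LOXL1 and TGM2 rises passed in each of 18 alternatives, with log2 fold changes of 1.87 to 2.16, 0.71 to 1.11 and 3.05 to 3.33. LOXL2 was called with upper-quartile scaling (0.18) and with the GC trend removed (0.35), and in none of the 16 others; the cause was not tested. LOXL3, not called in any fit, changed sign with the GC trend removed (0.088), without NC replicate 2 (0.18) and without OE_CD51_ICD replicate 1 (0.0050), and leaving out 1 library gave -0.23 to 0.18. LOXL4 could be tested only with no filter on low counts (log2 -0.08, edgeR adjusted p = 0.981).

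Genes called over the whole table numbered 2896 to 3801 higher and 2936 to 4051 lower across the alternatives. With library size as the only scaling they were 2896 higher and 4051 lower, against 3469 and 3559. With the replicate block, 3437 were higher and 3552 lower, and among the 5 tested enzymes no call changed (TGM2 3.18, LOX 2.09, LOXL1 0.77, LOXL2 0.13, LOXL3 -0.082). The labels do not say that libraries with the same number are paired. Their deviations from the group means correlated at -0.08, 0.01 and 0.08 for numbers 1, 2 and 3. Libraries with different numbers correlated at -0.11 to 0.11. With 3 libraries per group such correlations cannot show whether libraries shared a culture or a batch.

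With the length of the longest coding transcript, added after seeing the data, the shares of the lysyl oxidase sum in OE_CD51_ICD and NC were 34.7% and 14.8% for LOX, 38.2% and 40.3% for LOXL1, and 27.0% and 44.7% for LOXL2. The mean shares differed in the same direction as with the deposited lengths, but the LOXL1 shares then overlapped between groups. Shares were not computed with the GC trend removed. Depth limits LOXL3 and LOXL4, for which counting error alone was 14.6% to 54.8% of the mean count.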
